A study of Anguilla anguilla with 12 samples.

Results

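miR-122, miR-192 and miR-194 are microRNAs (miRNAs) known from hepatocytes, the main cells of the liver. They were examined here in pooled small RNA reads from the liver of the European eel (Anguilla anguilla). Members were the entries of a list of predicted miRNA precursors whose zebrafish example with the same seed was named miR-122, miR-192 or miR-194. The seed is bases 2 to 8 of the mature sequence, which pair with target mRNAs. This rule selected 10 of 820 precursors: 8 named miR-122, 1 named miR-192 and 1 named miR-194b. A name therefore stands for a shared seed and not for an established eel gene.

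The livers came from 12 yellow eels, the growth stage of the species. There were 6 animals from Arcachon Bay, which the study describes as pristine, and 6 from the Gironde Estuary, which it describes as polluted. The labels name no treatment, age or sex, and they do not say in what else the sites differ. The read counts are not divided by animal, so they describe the libraries as a whole, and no difference between the sites is reported.

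A miRNA hairpin is cut by Dicer into a duplex of a mature arm, which usually gives more reads, and a star arm, which is mostly degraded; the part between them is the loop. In vertebrates miR-122 is the dominant miRNA of hepatocytes and is known, from mammals, for its part in cholesterol and lipid metabolism. miR-192 and miR-194 are made from neighbouring hairpins, and in mammals they are enriched in liver, gut and kidney.

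The mature sequences of the 3 hairpins that carried star reads are shown because nearly all reads of the group lie in them. Capitals mark the seed.
miR-122: uGGAGUGUgacaaugguguuu
miR-192: aUGACCUAugaauugacagcc
miR-194b: uGUAACAGcaacuccaugugg

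The sequences listed for their star arms follow, again with bases 2 to 8 in capitals. No mature sequence of the list shared any of these 3 star seeds.
miR-122 star: aACGCCAUuaucacacuaaau
miR-192 star: cCUGUCAGuucuguaggccacu
miR-194b star: cCAGUGGAgcugcuguuaucugc

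In each of the 3 precursors the mature arm was 5p, at the start of the hairpin. The whole precursors, with the mature arm in capitals, show how closely the arms complement each other around a short loop.
miR-122 precursor: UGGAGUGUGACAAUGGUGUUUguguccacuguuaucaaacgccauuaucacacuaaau
miR-192 precursor: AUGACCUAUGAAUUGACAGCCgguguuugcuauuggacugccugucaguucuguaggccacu
miR-194b precursor: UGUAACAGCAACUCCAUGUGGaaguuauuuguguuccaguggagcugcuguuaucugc

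Together the 10 precursors had 181204074 mature reads, or 66.5% of the 272589277 in the list with every distinct mature sequence taken once (exact binomial interval 66.47% to 66.48%). All intervals here are 95% Clopper-Pearson intervals and cover counting error only, not the spread between eels or copies made in amplification. miRNAs known from other cells that a liver sample can hold had far smaller shares than miR-122 and smaller ones than miR-192, but not all had smaller ones than miR-194b, at 0.169%. The endothelial miRNA miR-126 held 0.763%, the stromal miR-143 and miR-199 held 0.969% with no entry named miR-145, and the erythroid miR-451 held 0.156% with no entry named miR-144. The leukocyte miR-150 and miR-155 held 0.00271% with no entry named miR-142 or miR-223; miR-146b, which is known from immune cells but not limited to them, is not in that list and had 3341038 reads. The epithelial miR-200 and miR-429 held 0.0809% with no entry named miR-141, and miR-216, miR-217 and miR-375 of the pancreas held 0.0671%. A family with no entry can be listed under another name with its seed. In pooled tissue, more cells of a type and more of a miRNA per cell cannot be told apart.

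The group was very uneven. The miR-122 seed held 64.8% of mature reads (interval 64.78% to 64.79%), miR-192 held 1.52% (interval 1.518% to 1.521%) and miR-194b 0.169% (interval 0.1681% to 0.1691%). These shares rest on the whole list: where the miRDeep2 score had to reach 4, no precursor with the miR-122 seed and no miR-194b precursor was left, and miR-192 held 4.47%. miR-122 had 176573973 mature reads, the most of the 676 distinct mature sequences. miR-192 had 4141267 and ranked number 7, and miR-194b had 459589 and ranked number 30. miR-122 reads were thus 42.6 times those of miR-192 and 384 times those of miR-194b. Among the reads outside the main miR-122 sequence, miR-192 made up 4.31% and miR-194b 0.479%. Sequences that were not identical kept separate ranks even under 1 name, such as the miR-22a-3p sequences with 9529100 and 7237252 reads. The precursors of these 2 sequences were listed with the same number of star reads, 58879. Whether reads were shared between such sequences, and so counted more than once in ranks and totals, was not tested.

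The sequences next to each in the order of reads place these levels. miR-122 had 12.7 times the reads of miR-21, the next in order, and 17.4 times those of the first let-7j sequence. miR-192 followed miR-26a-5p, at 0.657 of its reads, and had 1.24 times those of miR-146b and 1.28 times those of miR-100-5p. miR-194b followed miR-30e-3p, at 0.753 of its reads, and had 1.28 times those of the next, an unmatched sequence with 358999. Whether such neighbours would keep their order across eels was not tested, since no spread between animals could be computed. Counts of different miRNAs also depend on how well each sequence is ligated and amplified, which was not measured.

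**Figure D1:**
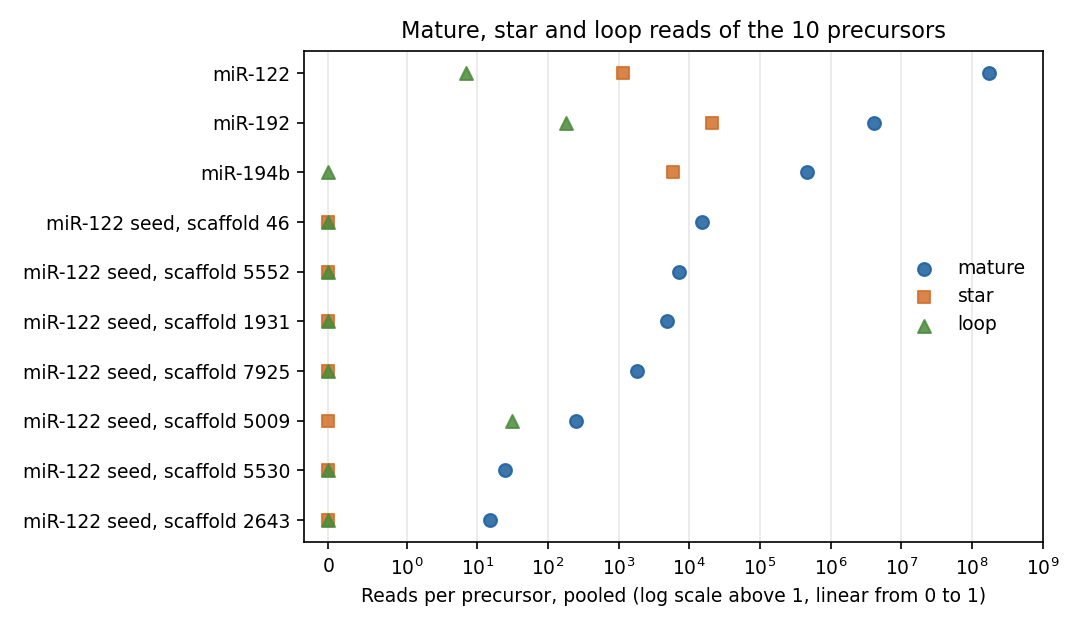
Mature, star and loop reads of each of the 10 precursors, pooled over libraries, on a scale that is logarithmic above 1 and linear from 0 to 1. The 3 upper precursors have from 1153 to 20747 star reads; the 7 lower ones, all with the miR-122 seed, have 0, and their mature reads run from 15 to 15143.

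Star reads separated the 3 hairpins from each other in an order unlike that of the mature reads. The miR-122 star arm had 1153 reads, that of miR-192 had 20747 and that of miR-194b had 5891. miR-122 thus had the most mature reads of the 3 and the fewest star reads. There were 153143 mature reads for each star read of miR-122, 200 for miR-192 and 78.0 for miR-194b.

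As a share of mature plus star reads, the star arm held 0.000653% in miR-122 (interval 0.000616% to 0.000692%), 0.498% in miR-192 (interval 0.492% to 0.505%) and 1.27% in miR-194b (interval 1.23% to 1.30%). These intervals do not overlap, so the shares differ beyond counting error. The median star share was 0.402% over the 792 precursors with 10 or more reads on the arms, so miR-192 and miR-194b lay near the middle: 50.9% and 56.4% of these precursors had a lower share. Precursors with 0 star reads count among them, as do precursors listed with the same mature sequence.

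In the same set 36.0% of precursors had a lower share than miR-122, nearly all of them with 0 star reads. When those were left out, miR-122 was near the lower end: among the 200 precursors with 1000 or more reads on the arms and at least 1 star read, its share was number 4 from the lowest, while miR-192 was number 102 and miR-194b number 128. The lower ones, named here after their values were seen, were a let-7j precursor with 1 star read, a miR-181c-5p precursor with 1 and a miR-128-3p precursor with 2. miR-122 alone of these 4 had more than 2 star reads. The 10059010 mature reads of this let-7j precursor were also listed at another let-7j precursor, with 2813 star reads. Another miR-181c-5p precursor had 944820 mature reads (against 944848) and 34 star reads. Another miR-128-3p precursor had 1405781 (against 1406829) and 367. The miR-122 mature sequence was listed at 1 entry only. Precursors with equal or similar mature reads were not merged, so the place of miR-122 may depend on such copies. For a lower share than miR-122 with at least 1 star read, a precursor needs more than 153143 mature reads. Shallower precursors could not rank below miR-122, so its place rests in part on its depth. Those left out for 0 star reads included a let-7j precursor with 10070960 mature reads. That mature count was also listed at a let-7j precursor with 1059 star reads. Counted as if it were a mature sequence, the miR-192 star arm would rank number 73 in the list, that of miR-194b number 106 and that of miR-122 number 146.

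**Figure D2:**
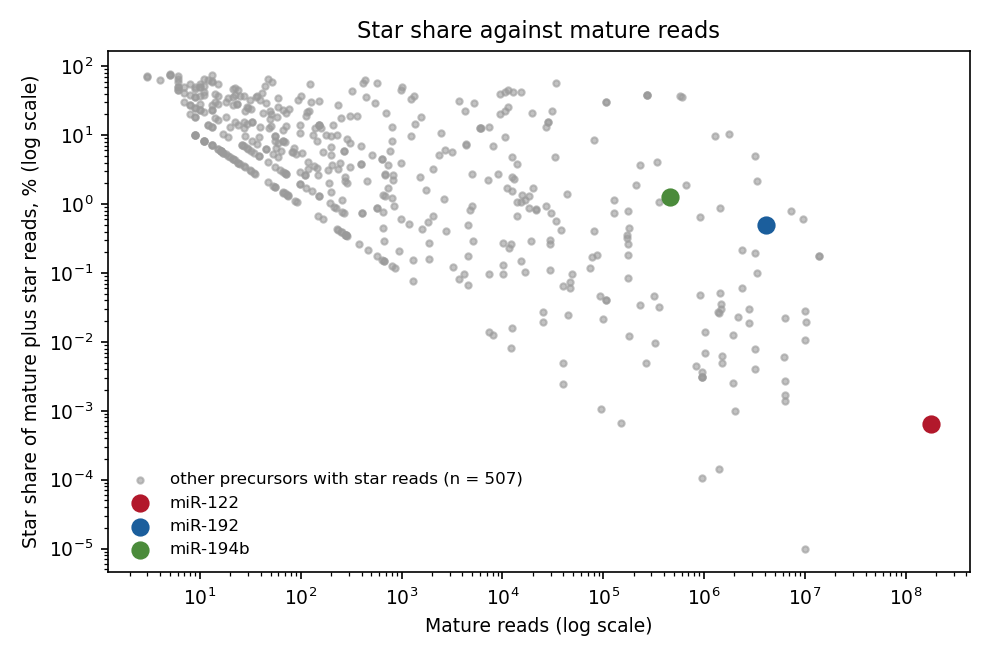
Star share of mature plus star reads, in percent, against mature reads, both on log scales, for precursors with at least 10 such reads and at least 1 star read; grey points are the other 507 precursors. miR-122, at 0.000653%, lies far to the right and low, and miR-192 at 0.498% and miR-194b at 1.27% lie amid precursors of similar reads.

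Loop reads come from the piece between the arms and were rare. The miR-192 precursor had 178 loop reads, number 4 in the whole list, the miR-122 precursor had 7 and the miR-194b precursor had 0, which allows up to 3. More than 3 loop reads were listed for 3 of the 10 members, and for 5.37% of all precursors. The third of these members was not one of the 3 hairpins with star reads. It was a precursor with the miR-122 seed on scaffold 5009, with 31 loop reads, which is made of a direct repeat and described below. Set against loop plus star reads, which like loop reads come from the discarded parts of the hairpin, loop reads made up 0.851% in miR-192 (interval 0.731% to 0.985%) and 0.603% in miR-122 (interval 0.243% to 1.24%). These intervals overlap. In miR-194b the 3 reads that a count of 0 allows would be 0.0509% of its star reads, below both.

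The loops differed in length: 19 nt in miR-192, 16 nt in miR-122 and 14 nt in miR-194b. Over the list, loop reads were more common where the loop was longer. Among precursors with at least 1000 reads they were seen in 40 of 86 with a loop of at least 18 nt (46.5%, interval 35.7% to 57.6%) and in 19 of 148 with a shorter one (12.8%, interval 7.91% to 19.3%). The limit of 18 nt was chosen after the values had been seen. Whether loop length bears on the loop reads of miR-192, miR-122 and miR-194b was not tested. Both intervals take precursors as independent, although some entries have equal counts, and read depth was not compared between the groups. No label or header states a minimum read length, and its part in these counts was not tested.

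miR-192 and miR-194b lay side by side. The miR-194b precursor was at bases 234541 to 234598 of scaffold 592, on the plus strand, and the miR-192 precursor at bases 235052 to 235113 of the same strand. In the direction of transcription miR-194b came first, 453 nt separated the precursors, and the pair spanned 573 nt. Neither overlapped another entry. Beside this pair the scaffold held an unmatched precursor with 205 mature reads 76.3 kb away on the minus strand and another with 413 mature reads 87.8 kb away on the plus strand. The miR-122 precursor was on scaffold 297, at bases 231110 to 231167 of the minus strand, with no other entry on that scaffold. Scaffolds are those of a whole-genome shotgun assembly named in the list. Its annotation was not used here, so the genes around these precursors, and whether they are intronic, are not stated.

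The reads of the neighbours were unequal. miR-192 had 9.01 times the mature reads of miR-194b and 3.52 times its star reads. A gap of this kind was common: in the 39 clusters of 2 precursors in the list (neighbouring starts within 10 kb), the higher precursor had a median of 5.35 times the mature reads of the lower (quartiles 2.64 and 20.2), and 23 of the 39 had a smaller ratio than this pair. Of all 52 clusters, 3 had more mature reads summed over their entries. No second entry carried the seed of miR-192 or of miR-194b, which does not show that the eel has no further copy.

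**Figure D3:**
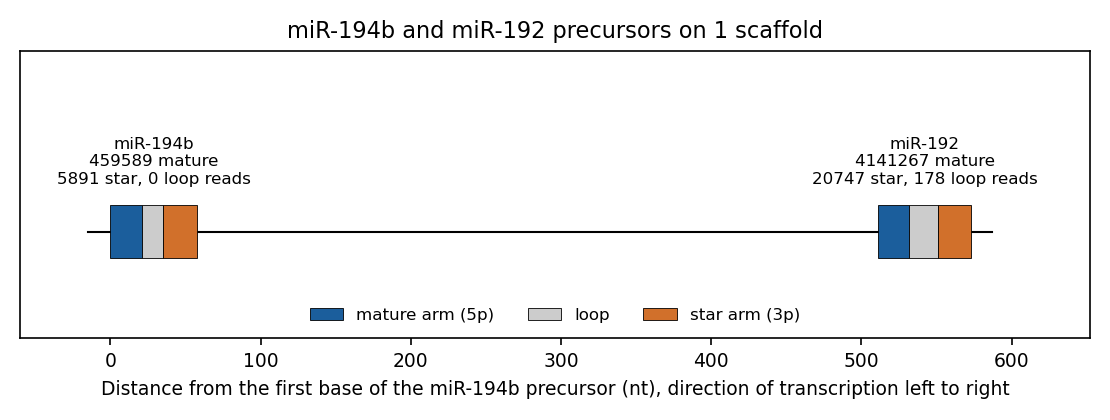
Map of the miR-194b and miR-192 precursors, drawn to scale along the distance in nt from the first base of miR-194b, with mature arms, loops and star arms coloured. The precursors are 453 nt apart, and miR-192, the second, has 4141267 mature reads against 459589.

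The other 7 members carried the miR-122 seed on other scaffolds, each with far fewer reads than miR-122. They are shown because they differ from miR-122 after the seed, and each is named by its scaffold. Capitals again mark the seed.
scaffold 46: cGGAGUGUgacaauguugu
scaffold 5552: cGGAGUGUgaaaaugguga
scaffold 1931: uGGAGUGUguaaauggugu
scaffold 7925: uGGAGUGUuacagugguga
scaffold 5009: uGGAGUGUgacagugugu
scaffold 5530: uGGAGUGUgagcuuuugu
scaffold 2643: uGGAGUGUgaugguguuu

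Their mature reads were 15143, 7152, 4869, 1795, 246, 25 and 15 in that order, or 29245 in all. This was 0.0107% of the mature reads of the list and 0.0166% of the reads of the main miR-122 sequence. Among the 676 distinct mature sequences the 7 ranked number 81, 103, 109, 132, 226, 468 and 549, in the same order. None of the 7 had a star read. A count of 0 allows up to 3 reads, which is a star share of up to 0.0198% for the sequence on scaffold 46 and of up to 12.0% and 20.0% for those on scaffolds 5530 and 2643. Even the lowest of these limits is above the 0.000653% of the main hairpin, so a share as low as that was not detectable at this depth in any of the 7. The limits on scaffolds 46, 5552, 1931 and 7925 were 0.0198%, 0.0419%, 0.0616% and 0.167%. These 4 were below the median star share of 0.402% and the 0.498% of miR-192. The limits of the other 3 were above both. At least 1 star read was listed for 3 of the 10 members and for 64.4% of all 820 precursors. The miR-122 seed held more sequences without any star read than each of the other 97 seeds matched to zebrafish: 7 of its 8, with 3 as the next highest number. By distinct sequences it came second, after the let-7j seed with 14, and no other seed had as many as 8. Of the 98 seeds, 47 had 1 distinct sequence, so many seeds could not hold 7 without star reads. Over all 200 distinct sequences matched to zebrafish, 63 or 31.5% had no star read.

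The 7 were also short. The mature sequence was 19 nt in 4 of them and 18 nt in 3, against 21 nt in the main miR-122, miR-192 and miR-194b. Such lengths of 18 or 19 nt were listed for 4.29% of the 676 distinct mature sequences. In 2 of the 7, those on scaffolds 46 and 5552, the first base was C. A first U, the base that Argonaute proteins favour, was found in 7 of the 10 members and in 58.6% of distinct mature sequences; miR-192 began with A.

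Beyond the seed, which the rule fixed, some of the 7 resembled miR-122 more than any sequence outside the group did. Over bases 9 to 18, compared without gaps, the sequences on scaffolds 46 and 5552 matched miR-122 at 9 of 10 positions. Those on scaffolds 1931 and 7925 matched at 8, that on 5009 at 6, that on 2643 at 5 and that on 5530 at 3. The 666 distinct sequences outside the group matched at a median of 2 of these positions and at most at 7, and 73 matched at 5 or more. Without gaps, the sequences on scaffolds 5009, 2643 and 5530 thus lay within the range of those outside the group.

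The differences can be named, with positions counted from 1 at the 5′ end and the base of miR-122 first. The sequence on scaffold 46 had U1C and G16U. That on scaffold 5552 had U1C, C11A and U19A, and that on scaffold 1931 had A10U and C11A. That on scaffold 7925 had G9U, A13G and U19A. The sequence on scaffold 2643 equalled miR-122 with 3 neighbouring bases left out, which can be read as bases 10 to 12 or 11 to 13. Compared without gaps, positions 11, 13 and 16 differed most often, in 4 of the 7 each, and position 14 in none.

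Compared without gaps, the 4 sequences with 1795 to 15143 reads had 2 or 3 differences and the 3 with 15 to 246 reads had 4 to 7. This split was only partly kept when insertions and deletions were allowed. The sequence on scaffold 5009, with 246 reads, was then 2 changes from miR-122, as were those on scaffolds 46 and 1931. That on scaffold 2643 was 3 changes away, as were those on 5552 and 7925. The sequence on scaffold 5530, with 25 reads, was 4 changes away, the most of the 7. The longest run shared between a mature sequence of the group and any other precursor of the list was 14 bases, between miR-122 and the sequence on scaffold 46, so no mature sequence of the group occurred whole in another entry. Whether reads of the main miR-122 sequence with mismatches were counted at the 7 was not tested, and no label or header states how many mismatches were allowed.

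**Figure D4:**
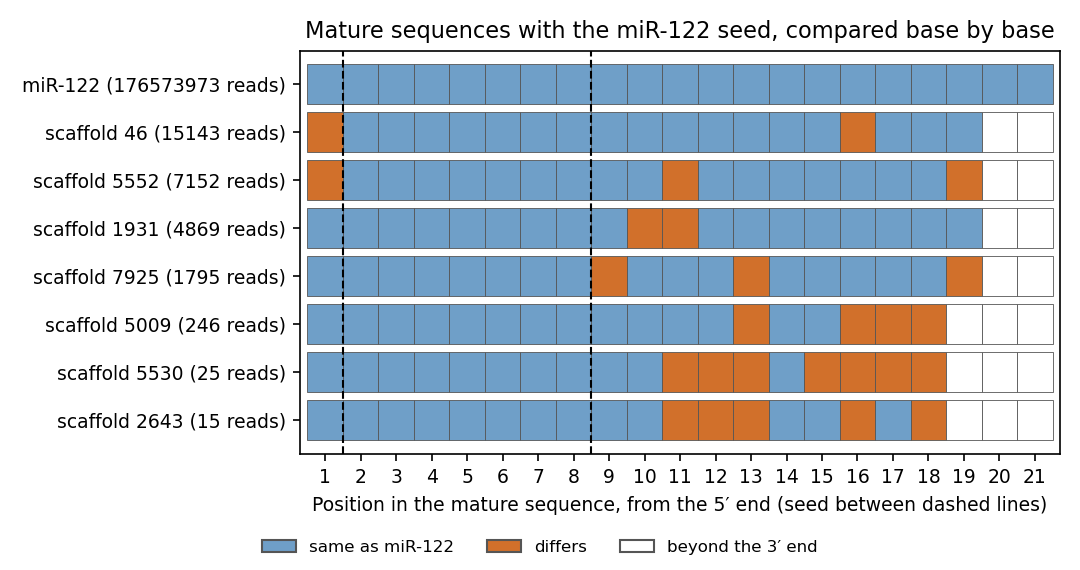
Base-by-base comparison of the 8 mature sequences with the miR-122 seed, by position from the 5′ end; blue squares equal miR-122, orange squares differ and white squares lie beyond the end of the shorter sequence. The seed is equal by the rule, the 4 sequences with 1795 to 15143 reads have 2 or 3 orange squares, and the 3 with fewer reads have 4 to 7.

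The predicted folds differed between the 3 hairpins with star reads and the other 7. Folding energy, computed from the precursor sequence with RNAfold, was -24.1 kcal/mol for miR-122, -24.9 for miR-192 and -25.7 for miR-194b. Per nucleotide this was -0.42, -0.40 and -0.44 kcal/mol, close to the median of -0.40 over all 820 precursors. The 7 ranged from -0.35 on scaffold 2643 to -0.14 on scaffold 5009, which was the weakest value of the list, so all 7 folded less firmly per nucleotide than the 3. Weak folds were not limited to the 7. Of all 820 precursors, 29.3% had a weaker value than that on scaffold 2643, 16.8% than that on 5552 and 2.20% than that on 46. In the predicted fold, 16 of the 21 mature bases of miR-122, 17 of miR-192 and 18 of miR-194b paired with the star arm. In the 7 the number ran from 0 of 19 on scaffold 1931 and 4 of 19 on scaffold 46 to 14 of 18 on scaffold 2643. As a share of mature bases, that last one, at 77.8%, was above the 76.2% of miR-122. The star arms of the 7, unlike those of the 3, are given in the list without any star read. Pairing to them is thus pairing to an arm that was not observed.

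Dicer and Drosha usually leave 2 unpaired bases at the 3′ ends of the duplex. At the outer end of the predicted hairpin, the 3′ side exceeded the 5′ side by 1 base in miR-122 and miR-192 and by 3 in miR-194b. An excess of 2 was found in 56.4% of the 812 precursors where it could be read, and in 4 of the 5 among the 7 where it could be read, those on scaffolds 5552, 7925, 5530 and 2643. The measure rests on the consensus ends in the list and on 1 predicted structure for each. None of the 7 had a star read, so no read places the outer end of their star arm. Their excess of 2 therefore cannot show where they are cut and is not comparable with that of miR-122, miR-192 and miR-194b. The 812 also include precursors without star reads.

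**Figure D5:**
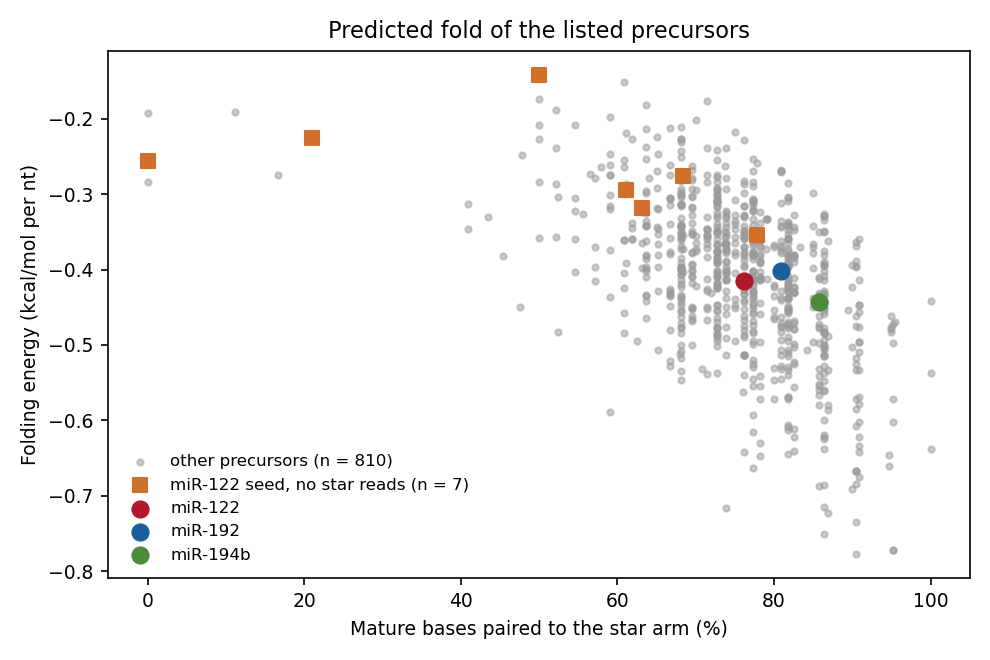
Predicted folding energy per nucleotide, in kcal/mol, against the percentage of mature bases paired to the star arm; grey points are the other 810 precursors. miR-122, miR-192 and miR-194b lie between -0.40 and -0.44 at 76.2% to 85.7% pairing, and the 7 orange squares lie above them, at -0.35 to -0.14. The star arms of these 7 have no reads.

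The precursor on scaffold 5009 (bases 25904 to 25968, plus strand) was made of a direct repeat. Its first and last 23 bases were identical, in capitals here, and the stretch between them was mostly alternating g and u.
scaffold 5009 precursor: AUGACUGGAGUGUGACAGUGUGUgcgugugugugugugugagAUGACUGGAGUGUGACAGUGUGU
The mature sequence thus occurred at bases 6 and 48 of the precursor, and the arm given as star overlaps its first copy. This was also the one member of the 7 with loop reads, 31 of its 277 reads or 11.2% (interval 7.73% to 15.5%). Reads of the copies cannot be told apart, so its 0 star reads and 31 loop reads may not be comparable with those of other precursors. The other 6 were on scaffold 46 (bases 944301 to 944346, minus strand), scaffold 5552 (3191 to 3229, minus strand), scaffold 1931 (1323 to 1395, minus strand), scaffold 7925 (15549 to 15594, minus strand), scaffold 5530 (57783 to 57863, plus strand) and scaffold 2643 (1521 to 1581, plus strand). Each was the single entry of its scaffold. The mature arm was 5p in 3 of the 7 and 3p in 4.

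None of the 10 mature sequences was listed at a second entry, while 15.4% of distinct mature sequences were. Within its own precursor, though, the mature sequence on scaffold 5009 had 2 copies, as described above. The miRDeep2 score, a log-odds value with no upper limit, did not follow the reads. miR-192 scored 2121992.6, or 0.51 per read, as did the median precursor scoring at least 100. miR-122 scored 3.7 and miR-194b 3.4, although both had star reads, and the 7 scored 0.5 to 2.4. A score of at least 100 was thus reached by 1 of the 10 members and by 27.9% of all precursors. Of the 86 precursors with at least 100000 mature reads, 19 scored under 10, and 14 of these 19 had star reads, as miR-122 and miR-194b did. The other 5 of the 19 had 0 star reads, while each of the 67 scoring 10 or over had star reads. The score therefore does not rank the 3 hairpins with star reads by their number of reads or of star reads.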

How the data were processed

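Per the labels, miRNA of 12 livers was extracted by kit and made into Illumina small RNA libraries; reads came from bcl2fastq 2.17.1.14, per the submitters' processing notes. The 820 precursors were predicted with miRDeep2, per the file headers. The authors deposited, with no normalization, the read count of the mature, star and loop part of each precursor. The total equalled their sum in 820 of 820 entries. The deposited score is that of miRDeep2. No column names a sample, so values are pooled, the depth of single libraries is unknown, and no test between eels was made. No label or header states the aligner, the trimming, the miRDeep2 version or which libraries entered.

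Members were taken by name. Precursors with identical mature sequences were counted once, at the highest count. Listed starts count from 0, and 1 was added. Star shares were compared among precursors with 10 or more reads on the arms, without merging those with identical mature sequences. Overlapping predictions were merged before clusters were formed. Precursors were folded with RNAfold 2.7.2; Python 3.11.15, pandas 2.3.3, numpy 2.4.6, scipy 1.17.1 and matplotlib 3.10.9 were used, and the functions were tested on simulated data. Named non-members were the neighbours on a member's scaffold or in the order of reads, markers of other cells, and sequences sharing 15 or more bases with a member, of which there were none. Precursors with a lower star share than miR-122 were named after their values were seen. Alternatives were score and read minimums, total reads, other ways to count copies, cluster distances and a shorter seed. Members, lists and rules were chosen with earlier results of these data known; the comparisons of length, fold, loop and bases 9 to 18 were chosen after the list was seen.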

Additional observations from a re-analysis of the deposited data

How the results depend on the processing

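No paired analysis was possible because the counts are not divided by sample, and no replicate could be left out. The read shares depended on how copies and scores were treated. The share of the miR-122 seed, 64.8% as reported, was 45.5% with each entry counted, 64.4% by total reads, 64.8% at a score of at least 1, 72.2% with each seed taken once, and 0% where the score had to reach 4 or 10, which removes all of its 8 precursors. The share of miR-192, 1.52% as reported, was 1.07% with each entry counted, 1.69% with each seed taken once, and 4.47% where the score had to reach 4 or 10. The share of miR-194b, 0.169% as reported, was 0.118% with each entry counted, 0.170% by total reads, 0.188% with each seed taken once, and 0% where the score had to reach 4 or 10. The order miR-122, miR-192, miR-194b held wherever all 3 remained in the list. A minimum of 100 mature reads moved none of the 3 shares beyond its counting interval. Star shares over total reads, the cluster of 2 precursors within 3 and 50 kb, and the 10 entries with a seed of bases 2 to 7 did not change beyond that either. With at least 1000 mature plus star reads, 15.8% of precursors had a star share under that of miR-122, against 36.0% with at least 10; for miR-192 these were 57.7% and 50.9%, and for miR-194b 68.8% and 56.4%. The intervals at this depth are narrow, but the spread between eels, which would set the error of every share, is unknown.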
